A study of Danio rerio with 8 samples.

Results

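The cytochrome P450 genes of the zebrafish larval liver were followed in 8 total RNA libraries, 4 from lf:YAP larvae and 4 from wild-type (WT) larvae. A P450 gene was any row whose symbol starts with cyp and a digit, apart from the sterol synthesis gene cyp51. The row with the highest count stood for each symbol, and a total of at least 10 counts over the 8 libraries was required. Of 80 P450 symbols in the table, 52 met this rule, out of 15832 named genes with as many counts. Just inside the limit were cyp27b1 with 12 counts and cyp1c2 and cyp27a1.2 with 10 each, and just outside it were cyp2aa3 and cyp2r1 with 9 each. The other 28 symbols had 9 counts or fewer, and 5 of them had none: cyp11a2, cyp19a1a, cyp1c1, cyp21a2 and cyp8b3.

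Both groups were untreated larvae whose livers were taken at 7 days of age, 10 livers to a library. In the transgenic lf:YAP line, per the labels, YAP is hyperactivated and its activation is specific to hepatocytes. YAP is a transcriptional co-activator held in check by Hippo signalling. The labels name no promoter, allele or clutch, so p-values measure the spread between these pools, which may be partly technical. The comparison asks how P450 transcript levels stand in livers with active YAP.

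P450 enzymes are haem proteins that insert oxygen into small lipophilic molecules. Those of the endoplasmic reticulum take electrons from P450 oxidoreductase, those of mitochondria from ferredoxin. Families 1, 2 and 3 act mainly on drugs, pollutants and fatty acids and are typical of mature hepatocytes. Family 4 oxidises fatty acids, and the higher-numbered families each serve a step in the handling of sterols, bile acids, steroid hormones, vitamin D or retinoids. Many members of family 2 in fish lie in runs of neighbouring copies, so similar copies may share reads, and their values are less certain.

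Named genes took 2668432 to 3170508 counts in the lf:YAP libraries and 2853543 to 3797709 in the WT libraries, of which the 52 P450 genes took 0.408% to 0.456% in lf:YAP and 0.459% to 0.492% in WT. The yap1 row stood at 631, 1012, 300 and 1304 CPM in lf:YAP replicates 1 to 4, and at 23.7, 23.6, 16.7 and 20.9 CPM in WT replicates 1 to 4. All lf:YAP libraries were above all WT libraries. All 14 listed hepatocyte markers were found, at a summed 25310 to 46125 CPM in lf:YAP and 37677 to 47817 CPM in WT. Exocrine pancreas transcripts were also present, and were highest in lf:YAP replicate 3 at 16355 CPM and in WT replicate 4 at 12386 CPM. Without those 2 libraries, 13 P450 genes were lower and 1 was higher, cyp2k8. Of the 12 calls given below 11 were kept, cyp2aa6 was lost (edgeR adjusted p = 0.0523), and cyp2ad2 and cyp2u1 were gained as lower.

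P450 genes that changed fell. Counts were compared by the quasi-likelihood test of edgeR with p-values adjusted over all 8369 genes tested, at a threshold of 0.05. Levels are CPM, counts scaled to a common library size with TMM factors, given as mean ± SD over 4 libraries, and a log2 fold change is lf:YAP over WT with its standard error (SE). Of the 52 P450 genes, 35 had enough counts to be tested. Of these, 12 were lower, 0 were higher and 23 did not pass. Over all genes tested, 10.5% were lower and 11.1% were higher, and 2912 had an unadjusted p under 0.05. The median log2 fold change was -0.35 over the 35 P450 genes and 0.01 over all genes tested. The filter on low counts asked for a level of about 3.44 CPM in 4 libraries. Of the 12 lower genes, 5 reached it in all 4 WT libraries but not in all 4 lf:YAP libraries. These were cyp2aa8, cyp2p8, cyp2p9, cyp2aa2 and cyp2aa6, with 0, 1, 3, 2 and 3 lf:YAP libraries at that level. Of the 29 tested P450 genes that reached it in each group, 7 were lower and 0 were higher.

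**Figure D1:**
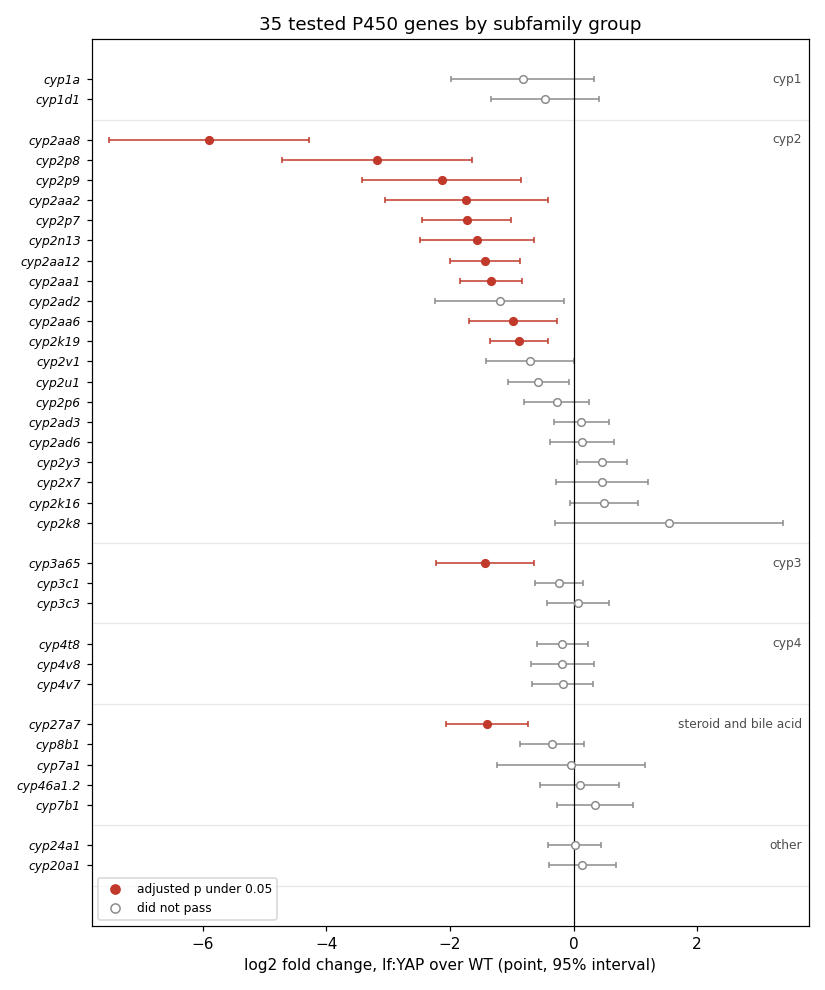
Log2 fold change (lf:YAP over WT, x axis) of the 35 tested P450 genes, sorted by size within 6 subfamily groups (rows), with points for the estimate and bars for its 95% interval. Filled red points mark the 12 genes with an adjusted p under 0.05, which all lie left of 0, between -5.90 for cyp2aa8 and -0.89 for cyp2k19.

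The drug-metabolizing gene cyp3a65 fell in lf:YAP livers. It is the zebrafish counterpart of mammalian CYP3A genes, whose enzymes clear a wide range of drugs, and is known from both liver and intestine. Its level was 400.1, 207, 632 and 218 CPM in lf:YAP replicates 1 to 4, against 865, 1057, 1041 and 977 CPM in WT replicates 1 to 4. The groups did not overlap, and lf:YAP replicates 2 and 4 were the lowest. The log2 fold change was -1.44 ± 0.32 (edgeR adjusted p = 0.00941). In pools of whole livers, fewer hepatocytes and less RNA per hepatocyte cannot be told apart, here and for every gene below.

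Intestine markers were also lower in part, with 4 of 10 tested lower and 0 higher, beside 10.5% and 11.1% of all genes tested. Their summed level was 315.6 to 872.7 CPM in lf:YAP and 470.5 to 1536 CPM in WT, ranges that overlap, and none of the 16 found in the table was at 0. In WT replicates 1 to 4, cyp3a65 stood at 865, 1057, 1041 and 977 CPM. The intestine sum in the same order was 470.5, 756.9, 806.0 and 1536 CPM. In lf:YAP replicates 1 to 4, cyp3a65 stood at 400.1, 207, 632 and 218 CPM. The intestine sum there was 427.7, 315.6, 872.7 and 362.0 CPM. Their rank order was the same in lf:YAP and differed in WT. The part of intestinal tissue in the cyp3a65 result was not tested. The other cyp3 genes did not pass. cyp3c1 averaged 64.6 ± 10.97 CPM in lf:YAP and 76.0 ± 6.50 CPM in WT (SD, n = 4 each), which is -0.24 in log2 (95% interval of -0.63 to 0.16). cyp3c3 had 0.07 with an interval from -0.43 to 0.58, and cyp3c4, with 25 counts in all, was not tested.

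In the cyp2aa subfamily, a group of P450 genes known from fish, cyp2aa12 and cyp2aa1 reached the filter on low counts in each group, and both fell. Of the other cyp2aa genes, cyp2aa8, cyp2aa2 and cyp2aa6 also fell. They reached the filter level in all 4 WT libraries but in only 0, 2 and 3 lf:YAP libraries, so their testing leaned on WT. cyp2aa8 was tested only because it was high there. cyp2aa7 was not tested, and 4 more cyp2aa symbols were under the minimum of 10 counts. The most abundant, cyp2aa12, stood at 58.5, 32.8, 73.6 and 39.05 CPM in lf:YAP replicates 1 to 4, against 138, 147, 135 and 128 CPM in WT replicates 1 to 4. Its log2 fold change was -1.44 ± 0.23 (edgeR adjusted p = 0.000947). The WT libraries lay close together, and even the highest lf:YAP library, replicate 3, was far below them.

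cyp2aa1 stood at 15.1, 9.15, 15.3 and 10.1 CPM in lf:YAP and at 33.2, 30.5, 33.3 and 26.4 CPM in WT, a log2 fold change of -1.33 ± 0.20 (edgeR adjusted p = 0.00073). Again replicates 2 and 4 of lf:YAP were the lowest, and the groups were apart.

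cyp2aa8 had a single count in lf:YAP. It had 1, 0, 0 and 0 counts in lf:YAP replicates 1 to 4, against 17, 11, 25 and 26 counts in WT replicates 1 to 4. The ratio of lf:YAP to WT was 0.0109, with a 95% counting interval from 0.000274 to 0.0628 (exact binomial, counting error only). The edgeR log2 fold change was -5.90 ± 0.66 (adjusted p = 0.000101), and it moved to -7.44 without lf:YAP replicate 1, which held the only count.

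The calls of cyp2aa2 and cyp2aa6 were lost when some single libraries were left out. cyp2aa2 stood at 3.95, 1.27, 8.51 and 0.741 CPM in lf:YAP and at 9.54, 13.7, 10.2 and 9.61 CPM in WT, a log2 fold change of -1.73 ± 0.54 (edgeR adjusted p = 0.0429). Its value was -2.54 without lf:YAP replicate 3, and leaving out any other single library ended the call (adjusted p of 0.0643 to 0.106). cyp2aa6 stood at 8.97, 4.32, 2.98 and 5.68 CPM in lf:YAP and at 9.92, 13.3, 10.2 and 10.2 CPM in WT, a log2 fold change of -0.98 ± 0.29 (edgeR adjusted p = 0.0306). That call was lost when replicate 2 or 4 of lf:YAP, or replicate 2 or 3 of WT, was left out (adjusted p of 0.0555 to 0.0986), and with libraries scaled by total counts (0.142), as well as without lf:YAP replicate 3 and WT replicate 4 together. The remaining member, cyp2aa7, had 10 counts in lf:YAP and 19 in WT and was not tested.

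**Figure D2:**
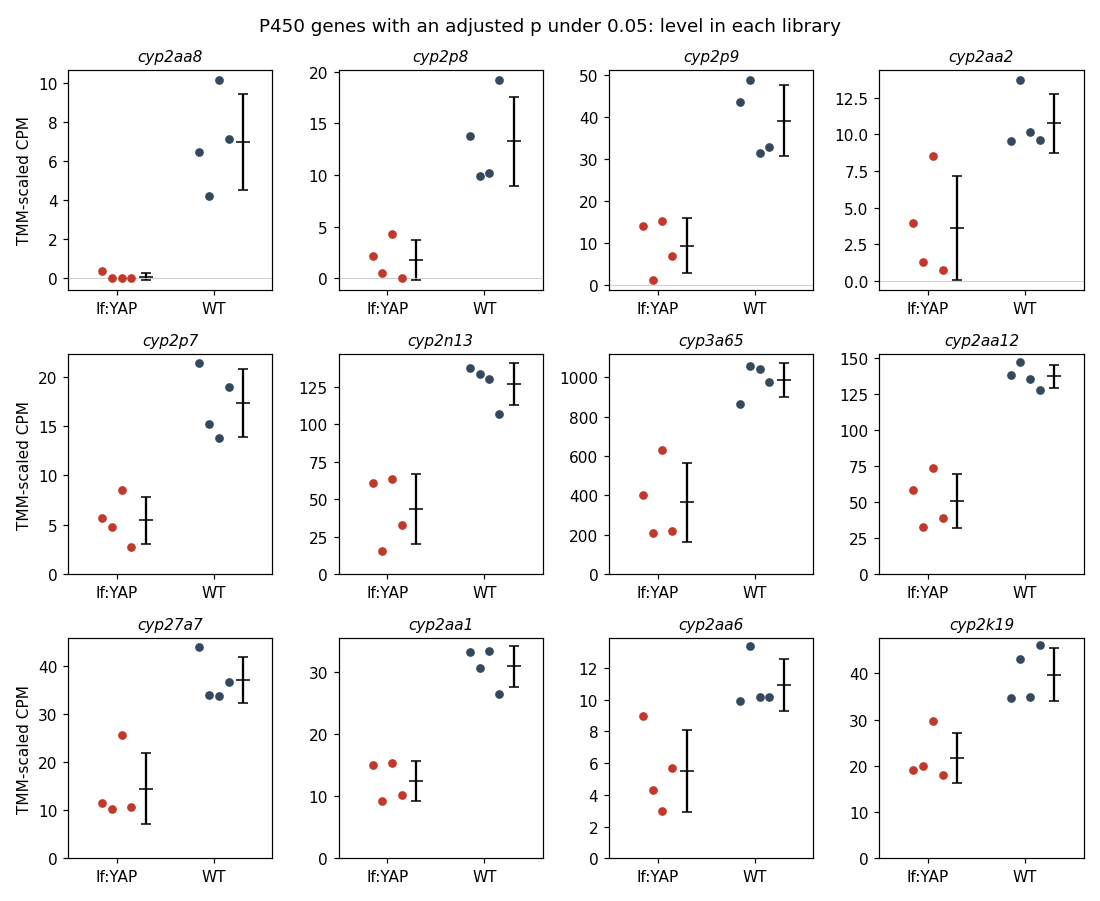
Level (TMM-scaled CPM, y axis, linear) of the 12 P450 genes with an adjusted p under 0.05 in each lf:YAP library (red, left) and each WT library (dark, right), with the mean and SD of the 4 libraries beside the points. In each panel all lf:YAP libraries lie below all WT libraries, as for cyp3a65 at 207 to 632 CPM in lf:YAP and 865 to 1057 CPM in WT. cyp2aa8, cyp2p8, cyp2p9, cyp2aa2 and cyp2aa6 reached the level of the filter on low counts in all WT libraries but not in all lf:YAP libraries.

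The run of cyp2n, cyp2ad, cyp2v, cyp2p and cyp2j genes was split. RefSeq lists cyp2j synonyms for several of them, among them cyp2n13, cyp2ad2 and cyp2p7. In mammals, CYP2J enzymes make epoxides of arachidonic acid. Of 9 tested genes in this run, 4 fell, 0 rose and 5 did not pass. The shares over all genes tested were 10.5% lower and 11.1% higher. Of the 4, cyp2p8 and cyp2p9 reached the level of the filter on low counts in all WT libraries but not in all lf:YAP libraries. The abundant cyp2n13 stood at 61.0, 15.2, 63.8 and 32.9 CPM in lf:YAP replicates 1 to 4, against 137, 133, 130.1 and 107 CPM in WT replicates 1 to 4. The groups did not overlap. The log2 fold change was -1.57 ± 0.38 (edgeR adjusted p = 0.0159), and the adjusted p was 0.0544 without lf:YAP replicate 4.

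The neighbouring genes cyp2p7, cyp2p8 and cyp2p9 fell. cyp2p7 reached the level of the filter on low counts in all libraries of each group. cyp2p8 and cyp2p9 reached it in all 4 WT libraries but in only 1 and 3 lf:YAP libraries. cyp2p8 was tested only because it was high in WT. cyp2p7 stood at 5.74, 4.83, 8.51 and 2.72 CPM in lf:YAP and at 21.4, 15.3, 13.8 and 18.9 CPM in WT, a log2 fold change of -1.73 ± 0.29 (edgeR adjusted p = 0.00131). cyp2p8 stood at 2.15, 0.508, 4.26 and 0 CPM in lf:YAP and at 13.7, 9.91, 10.2 and 19.2 CPM in WT, a log2 fold change of -3.18 ± 0.63 (edgeR adjusted p = 0.00589). Replicate 3 was the highest lf:YAP library for both genes, and without it the value of cyp2p8 was -4.08. cyp2p9 stood at 14.0, 1.27, 15.3 and 6.92 CPM in lf:YAP and at 43.5, 48.8, 31.3 and 32.9 CPM in WT, a log2 fold change of -2.14 ± 0.53 (edgeR adjusted p = 0.0215). Leaving out lf:YAP replicate 4 gave an adjusted p of 0.0735, and leaving out WT replicate 2 gave 0.0551.

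Other genes of the same run gave different values. cyp2ad2, the most abundant of them, stood at 174, 61.5, 196 and 49.2 CPM in lf:YAP and at 301, 305, 268 and 225 CPM in WT. The groups did not overlap, yet the log2 fold change of -1.20 ± 0.43 did not pass (edgeR adjusted p = 0.0786). It passed with DESeq2 (0.0147), with libraries scaled by total counts (0.0327) and without lf:YAP replicate 3. Its neighbours cyp2ad3 and cyp2ad6 had log2 fold changes of 0.13 (interval from -0.32 to 0.57) and 0.14 (interval from -0.39 to 0.66), and their groups overlapped. cyp2p6 had -0.27 (interval from -0.80 to 0.25). cyp2v1 had -0.71 ± 0.29 (adjusted p = 0.103). In the RefSeq annotation cyp2v1 overlaps cyp2ad2, cyp2ad3 and cyp2p6, so the reads of any of these genes may not be its own. Over the 35 tested P450 genes, the 4 lf:YAP libraries lay below all WT libraries for 13 and above them for 0. The 13 were the 12 lower genes and cyp2ad2. Of these, 5 (cyp2aa8, cyp2p8, cyp2p9, cyp2aa2 and cyp2aa6) reached the filter level in all WT libraries but not in all lf:YAP libraries. Over all genes tested, 11.3% lay below and 12.4% above.

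In the cyp2k subfamily, another group known from fish, 1 of 3 tested genes fell, beside 10.5% of all genes tested. cyp2k19 stood at 19.02, 20.1, 29.8 and 18.04 CPM in lf:YAP and at 34.7, 43.1, 34.97 and 46.1 CPM in WT, a log2 fold change of -0.89 ± 0.19 (edgeR adjusted p = 0.00597). With libraries scaled by total counts its adjusted p was 0.0519. Its relatives cyp2k16 and cyp2k8 had positive values that did not pass, 0.49 ± 0.23 (adjusted p = 0.144) and 1.54 ± 0.75 (adjusted p = 0.182). In RefSeq, cyp2k19, cyp2k16 and cyp2k8 overlap the same further protein-coding gene, so their reads may not be their own.

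The remaining tested cyp2 genes did not pass, and are named here after their values were seen. cyp2u1, whose mammalian counterpart hydroxylates long-chain fatty acids, averaged 27.7 ± 7.20 CPM in lf:YAP and 40.8 ± 6.48 CPM in WT (SD, n = 4 each; log2 fold change of -0.57, edgeR adjusted p = 0.0623). cyp2y3 averaged 64.4 ± 10.1 CPM in lf:YAP and 46.8 ± 5.86 CPM in WT (SD, n = 4 each; 0.46, edgeR adjusted p = 0.0692). cyp2x7 had 0.47 with an interval from -0.28 to 1.21. cyp2u1 was called lower with limma-voom, when lf:YAP replicate 1 or 3 was left out, and when lf:YAP replicate 3 and WT replicate 4 were left out together, and cyp2y3 was called higher without lf:YAP replicate 2. Scaled by total counts, cyp2y3 and cyp2k16 were called higher, the only P450 genes called so under that scaling.

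Genes that fell and genes that did not pass lay side by side along the chromosome. Gene order was taken from the RefSeq table of the assembly GRCz12tu, in which 51 of the 52 genes were found, all but cyp27a7. With at most 5 protein-coding genes allowed between neighbours, 29 of them lay in 5 runs. In the run from cyp2aa12 to cyp2ae1 the 5 tested genes were lower. Of these, 3 had reached the filter level in all WT libraries but not in all lf:YAP libraries. In the run from cyp2n13 to cyp2j20, the lower genes were the outermost cyp2n13 and the adjacent cyp2p7, cyp2p8 and cyp2p9. Of these lower genes, cyp2p8 and cyp2p9 had reached the filter level in all WT libraries but not in all lf:YAP libraries. The 5 genes between cyp2n13 and cyp2p7 did not pass. The run from cyp2k18 to cyp2k6 held 1 lower gene of 3 tested, and those of cyp2x and cyp3c genes held 0 of 1 and 0 of 2. Over all genes tested, 10.5% were lower. In the same annotation cyp2aa12 and cyp2aa6 overlap tut4, a gene of an RNA uridylyltransferase, which averaged 17.4 ± 1.42 CPM in lf:YAP and 14.6 ± 4.02 CPM in WT (SD, n = 4 each; log2 fold change of 0.25, edgeR adjusted p = 0.42).

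**Figure D3:**
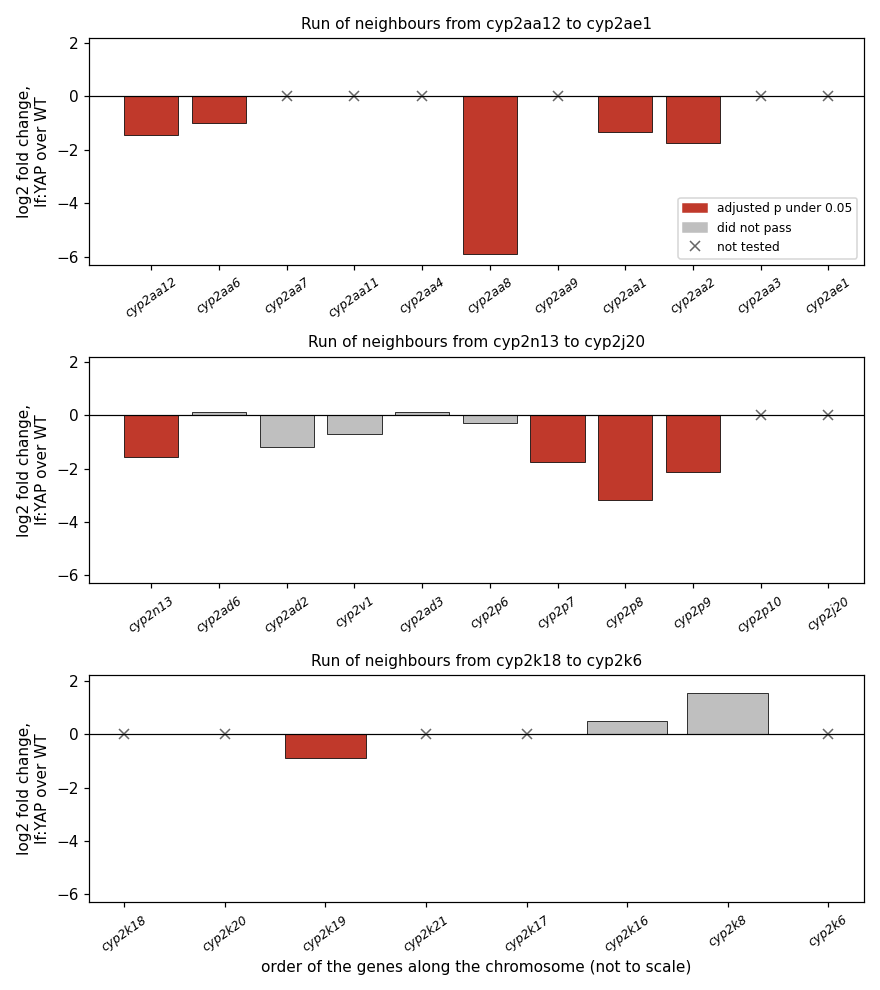
Log2 fold change (lf:YAP over WT, y axis) of the P450 genes in 3 runs of neighbours, in their order along the chromosome (x axis, not to scale). Red bars passed the test, grey bars did not, and crosses mark genes with too few counts or under the minimum. The 5 bars of the cyp2aa run are red (3 of these genes reached the filter level in all WT but not all lf:YAP libraries). The cyp2n13 run holds 4 red and 5 grey bars. Of the red ones, cyp2p8 and cyp2p9 reached the filter level in all WT but not all lf:YAP libraries.

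The tested cyp1 genes, cyp1a and cyp1d1, did not pass. cyp1a, the classic target of the aryl hydrocarbon receptor, stood at 163, 84.9, 183 and 33.4 CPM in lf:YAP replicates 1 to 4, against 233, 193, 259 and 135 CPM in WT replicates 1 to 4. The groups overlapped, since lf:YAP replicates 1 and 3 were above WT replicate 4. The log2 fold change was -0.83 with a 95% interval from -1.99 to 0.34 (edgeR adjusted p = 0.258). cyp1d1 had -0.46 with an interval from -1.33 to 0.41, and was called lower without lf:YAP replicate 1 (-0.94, edgeR adjusted p = 0.0464). cyp1c2, with 3 counts in lf:YAP and 7 in WT, was not tested.

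The 3 cyp4 genes, whose relatives in mammals oxidise the end of fatty acid chains, had log2 fold changes of -0.18 each and did not pass. cyp4v7 averaged 249 ± 73.7 CPM in lf:YAP and 282 ± 21.7 CPM in WT, and cyp4v8 averaged 139 ± 43.2 CPM in lf:YAP and 158 ± 7.42 CPM in WT (SD, n = 4 each). Their 95% intervals ran from -0.67 to 0.32 and from -0.69 to 0.32. cyp4t8 averaged 79.8 ± 14.2 CPM in lf:YAP and 90.6 ± 10.8 CPM in WT, with an interval from -0.60 to 0.23. With libraries scaled by total counts, which moved the median over all genes to 0.31, cyp4v7 and cyp4v8 had 0.07 and 0.06.

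Among the 5 tested steroid and bile acid genes 1 fell, beside 10.5% of all genes tested. The gene of the rate-limiting enzyme of bile acid synthesis did not pass. cyp7a1, which starts the classic pathway from cholesterol, stood at 82.9, 75.7, 195 and 36.6 CPM in lf:YAP replicates 1 to 4, against 66.8, 71.7, 116 and 145 CPM in WT replicates 1 to 4. The groups overlapped, and the lf:YAP libraries spread more widely than the WT libraries. The log2 fold change was -0.05 with a wide 95% interval, from -1.24 to 1.15 (edgeR adjusted p = 0.961). cyp8b1, the sterol hydroxylase that sets the share of cholic acid, averaged 24.9 ± 7.09 CPM in lf:YAP and 31.5 ± 5.55 CPM in WT (SD, n = 4 each), which is -0.35 in log2 (95% interval of -0.87 to 0.16). cyp7b1, the oxysterol hydroxylase of the alternative pathway, had 0.35 with an interval from -0.27 to 0.97.

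The gene that fell was cyp27a7, one of the zebrafish cyp27a genes. The mammalian enzyme CYP27A1 is the mitochondrial sterol hydroxylase that oxidises the side chain of bile acid precursors. cyp27a7 stood at 11.5, 10.2, 25.5 and 10.6 CPM in lf:YAP replicates 1 to 4, against 43.9, 33.9, 33.8 and 36.5 CPM in WT replicates 1 to 4. Replicate 3 stood apart from the other lf:YAP libraries and was still below WT. The log2 fold change was -1.39 ± 0.27 (edgeR adjusted p = 0.00339). Its relatives cyp27a1.2 and cyp27a1.4 had 10 and 18 counts in all and were not tested. Of the cholesterol hydroxylase genes of the cyp46a1 type, known in mammals from neurons, cyp46a1.2 had 0.10 with an interval from -0.54 to 0.74, and cyp46a1.3 had 13 counts in lf:YAP and 36 in WT.

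Genes of steroid hormone synthesis had few counts or none. cyp11a1, cyp11c1, cyp17a1 and cyp17a2 had 2 to 6 counts over the 8 libraries, cyp19a1b had 1, and cyp21a2, cyp19a1a and cyp11a2 had none. The interrenal marker star had 3 counts in all and hsd3b2 had 0. Both belong to a list of 12 interrenal and kidney markers whose sum is given below.

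The most abundant P450 transcript by count did not pass. cyp24a1, whose enzyme breaks down active vitamin D, stood at 2276, 2118, 2601 and 1964 CPM in lf:YAP replicates 1 to 4, against 2144, 2193, 2551 and 1971 CPM in WT replicates 1 to 4. The groups overlapped fully, and the log2 fold change was 0.02 (95% interval of -0.41 to 0.45; edgeR adjusted p = 0.961). Gene lengths were not used, so levels are compared within genes only. cyp24a1 took 52.1%, 61.8%, 49.6% and 61.5% of all P450 CPM in lf:YAP replicates 1 to 4, against 41.8%, 41.1%, 44.6% and 40.5% in WT replicates 1 to 4.

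The vitamin D activating enzyme gene cyp27b1 had 0 counts in every lf:YAP library, against 4, 4, 2 and 2 counts in WT replicates 1 to 4. With a floor of 3 counts set for the lf:YAP group, it was 4.63-fold lower in lf:YAP. That value takes the 12 WT counts as exact and leaves out their counting error, so it is not a lower bound. cyp27b1 met the minimum count through WT alone, and at this depth it was not tested in the fit above. The retinoic acid hydroxylase genes cyp26b1 and cyp26c1 had 44 and 14 counts in all, and cyp27c1, a retinoid desaturase gene in zebrafish, had 41. The orphan gene cyp20a1 averaged 9.12 ± 0.898 CPM in lf:YAP and 8.23 ± 1.57 CPM in WT (SD, n = 4 each), which is 0.14 in log2 (95% interval of -0.39 to 0.68).

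The 17 P450 genes that were not tested had 10 to 107 counts in all. With every gene of at least 10 counts tested, 4 of these 17 passed by edgeR, and are named after their values were seen. Of all 15832 genes tested in this way, 1185 were higher and 1013 were lower. cyp2j20 and cyp27b1 met the rule of 10 counts only through WT, and cyp2p10 only through lf:YAP. cyp2k18 had 3, 1, 7 and 6 counts in lf:YAP replicates 1 to 4 and 9, 16, 14 and 51 in WT replicates 1 to 4, a log2 fold change of -2.41 (adjusted p = 0.00779). cyp2j20 had 0, 0, 0 and 3 counts in lf:YAP and 7, 4, 4 and 6 in WT (adjusted p = 0.0364), a ratio of lf:YAP to WT of 0.124 with a 95% counting interval from 0.0236 to 0.414. cyp27b1 passed with an adjusted p of 0.021. cyp2p10 had 6, 4, 16 and 14 counts in lf:YAP and 4, 0, 0 and 1 in WT, and was the 1 P450 gene called higher (2.80, adjusted p = 0.0295). cyp2k18 and cyp2j20 were low in lf:YAP without overlap between the groups. That share was not counted over all genes at this setting, and was 11.3% over the 8369 genes of the main test. For cyp2p10 the counts of lf:YAP replicate 2 and WT replicate 1 were equal. In RefSeq, cyp2p10 and cyp2j20 are neighbours that overlap.

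Summed over the 52 genes, P450 transcripts reached 4058 ± 939 CPM in lf:YAP and 5262 ± 355 CPM in WT (SD, n = 4 each), given as a description with no test. The ranges overlapped, with 3195 to 5244 CPM in lf:YAP and 4872 to 5713 CPM in WT. Without cyp24a1 they did not, with 2091, 1308, 2643 and 1232 CPM in lf:YAP replicates 1 to 4 and 2901 to 3162 CPM in WT. The cyp3 sum, mostly the single gene cyp3a65, was 282 to 731 CPM in lf:YAP and 949 to 1147 CPM in WT. The cyp2 sum was 424 to 779 CPM in lf:YAP and 928 to 1074 CPM in WT. The cyp4 sum was 363 to 639 CPM in lf:YAP and 493 to 550 CPM in WT.

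**Figure D4:**
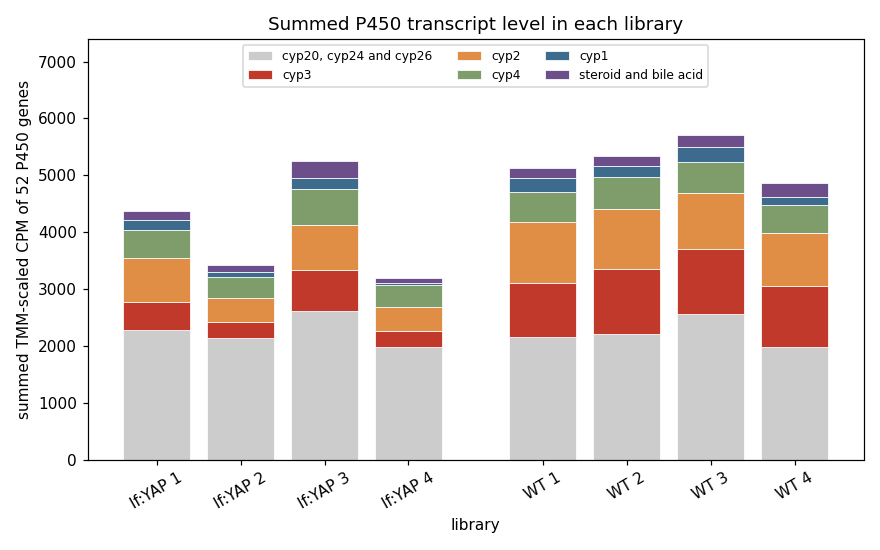
Summed level (TMM-scaled CPM, y axis from 0) of the 52 P450 genes in each lf:YAP library (left) and WT library (right), stacked by subfamily group. The grey segment, nearly all cyp24a1, is of like height in both groups. The red cyp3 segment, mostly the single gene cyp3a65, is 282 to 731 CPM in lf:YAP and 949 to 1147 CPM in WT.

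Hepatocyte markers moved with these sums in part. Of 14 tested, 4 were lower and 1 was higher, beside 10.5% lower and 11.1% higher over all genes tested, and their sum was 38353, 25310, 46125 and 29403 CPM in lf:YAP replicates 1 to 4, overlapping that of WT. As a percent of the hepatocyte marker sum of the same library, the cyp2 sum was 1.44% to 2.01% in lf:YAP and 2.25% to 2.66% in WT. The cyp3 sum was 0.981% to 1.59% in lf:YAP and 1.99% to 2.88% in WT. The cyp4 sum was 1.27% to 1.44% in lf:YAP and 1.11% to 1.38% in WT. On this scale the cyp2 and cyp3 ranges did not overlap, and the cyp4 ranges did. The cyp2 and cyp3 sums include the genes called lower above, so their ranges are no separate evidence. The sum of all P450 genes, cyp24a1 included, also overlapped, at 10.87% to 13.54% in lf:YAP and 10.72% to 13.49% in WT. The marker sum itself includes the 4 lower markers and the 1 higher marker, fabp10a (log2 fold change of 1.55, edgeR adjusted p = 0.000248). Of 7 tested bile duct markers, 6 were higher (11.1% of all genes tested) and 0 were lower, with a sum of 2936 to 5303 CPM in lf:YAP and 1473 to 1549 CPM in WT and no marker at 0. Of 7 tested stellate cell markers 3 were lower, with a sum of 23.4 to 53.8 CPM in lf:YAP and 52.3 to 122 CPM in WT and pdgfrb at 0. Of 19 tested muscle markers 5 were lower and 2 higher, with a sum of 254 to 1427 CPM in lf:YAP and 1000.5 to 1987 CPM in WT. On the interrenal and kidney list 1 marker was tested, slc22a2, and it was lower (log2 fold change of -0.87, edgeR adjusted p = 0.0333). The sum of that list was 66.6 to 160.0 CPM in lf:YAP and 150.5 to 219 CPM in WT. No macrophage marker had enough counts to be tested, and their sum was 18.7 to 42.3 CPM in lf:YAP and 8.39 to 15.9 CPM in WT, with no overlap. The part of these cell types in the P450 results was not tested.

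The lf:YAP libraries differed among themselves. In the order of rising yap1 (300, 631, 1012 and 1304 CPM in replicates 3, 1, 2 and 4), the P450 sum without cyp24a1 was 2643, 2091, 1308 and 1232 CPM. The cyp3 sum, mostly cyp3a65, was 731, 484, 282 and 288 CPM in that order. Genes that did not pass between the groups had the same order, cyp24a1 at 2601, 2276, 2118 and 1964 CPM and porb at 352, 301, 280.1 and 264 CPM. Along the same replicates, the hepatocyte marker sum was 46125, 38353, 25310 and 29403 CPM. The exocrine pancreas sum was 16355, 3765, 3587 and 3179 CPM. With 4 libraries no relation was tested. The TMM factors in the same order were 0.869, 1.04, 1.28 and 1.28. Without them the cyp3 sum was 636, 506, 362 and 368 CPM. The summed cyp20, cyp24 and cyp26 genes, nearly all cyp24a1, were then at 2270, 2387, 2731 and 2523 CPM. Without TMM factors that sum thus did not fall along this order.

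The electron donors of P450 enzymes did not pass in any case, 0 of 8 tested. The oxidoreductase gene porb, which serves the P450s of the endoplasmic reticulum, averaged 299 ± 38.3 CPM in lf:YAP and 339 ± 19.3 CPM in WT (SD, n = 4 each; log2 fold change of -0.18, edgeR adjusted p = 0.447). The mitochondrial ferredoxin gene fdx1 had -0.68 ± 0.32 (adjusted p = 0.155), and the cytochrome b5 gene cyb5a had -0.37 ± 0.28 (adjusted p = 0.394). Over all genes tested, 21.6% passed in either direction.

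Of 8 tested genes of haem synthesis and breakdown, 1 rose and 1 fell, which is near the shares over all genes tested (11.1% higher and 10.5% lower). The haem oxygenase gene hmox1a, which breaks haem down, averaged 22.4 ± 9.81 CPM in lf:YAP and 7.07 ± 1.31 CPM in WT (SD, n = 4 each), or in log2 terms a change of 1.62 ± 0.33 (edgeR adjusted p = 0.0047). The ferrochelatase gene fech, which closes haem synthesis, averaged 22.2 ± 6.45 CPM in lf:YAP and 40.2 ± 6.80 CPM in WT (SD, n = 4 each), or in log2 terms a change of -0.87 ± 0.22 (edgeR adjusted p = 0.0125). alas1, the rate-limiting step in liver, had 0.40 ± 0.18 and did not pass (adjusted p = 0.141).

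Of 27 tested receptors and factors known to control P450 genes, 5 fell, 1 rose and 21 did not pass, where 10.5% of all genes tested were lower and 11.1% higher, and the median log2 fold change was -0.0047. Those that fell were foxa1 (-1.52 ± 0.31, edgeR adjusted p = 0.00384), a pioneer factor of liver genes, cebpa (-1.51 ± 0.39, 0.0144), a factor of hepatocyte maturity, the retinoid X receptor gene rxraa (-0.81 ± 0.18, 0.0065), the fatty acid receptor gene pparaa (-0.95 ± 0.30, 0.0365) and the vitamin D receptor gene vdra (-0.83 ± 0.27, 0.0449). cebpb, linked to the acute-phase response, averaged 66.9 ± 17.6 CPM in lf:YAP and 36.1 ± 9.16 CPM in WT (SD, n = 4 each; 0.89 ± 0.23, edgeR adjusted p = 0.0139). The xenobiotic receptor genes did not pass, with 0.36 ± 0.15 for ahr2 (adjusted p = 0.102) and 0.40 ± 0.17 for nr1i2 (adjusted p = 0.108). hnf4a, a main regulator of hepatocyte genes, had -0.62 ± 0.21 (adjusted p = 0.0552).

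Of 8 tested genes listed for bile acid synthesis and transport outside the P450 family, 3 fell and 2 rose, beside 10.5% lower and 11.1% higher over all genes tested. The peroxisomal genes scp2a (-1.32 ± 0.25, edgeR adjusted p = 0.00268) and hsd17b4 (-0.93 ± 0.21, 0.00765), which act in side-chain shortening, were lower. The peroxisomal gene acox3 was also lower (-0.68 ± 0.22, edgeR adjusted p = 0.0414), and acox2, on the same list, was not found. The steroid dehydrogenase gene hsd3b7 (0.67 ± 0.22, 0.044) and the transporter subunit gene slc51a were higher, slc51a at 178 ± 69.7 CPM in lf:YAP and 66.3 ± 8.61 CPM in WT (SD, n = 4 each; 1.43 ± 0.27, edgeR adjusted p = 0.00349).

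In the authors' deposited table, 13 of the 52 P450 genes had an adjusted p under 0.05, all with a negative fold change. In the authors' deposited table these were 11 of the 12 lower genes above, without cyp2aa6, plus cyp2j20 and cyp27b1, which had too few counts for the fit above. cyp2j20 and cyp27b1 met the rule of 10 counts only through WT. Over that whole table, 1682 rows with a name had an adjusted p under 0.05, among 35117 rows of which 6518 had no name. The 52 P450 genes had at least 10 counts, a limit not set for those rows, so the shares are not alike. The directions of those 1682 were not counted, so no share of lower genes stands beside the 13.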

How the data were processed

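The submitters' processing notes list HISAT2 2.1.0, featureCounts 1.6.0, cutadapt 1.16 and limma 3.40.6, and the build danRer10, without saying what each was used for. No source used here names the gene annotation or says whether counting used the strand, so reads of overlapping genes cannot be told apart. In RefSeq, cyp1d1, cyp2u1, cyp4v7, cyp8b1, cyp20a1 and cyp27b1 also overlap protein-coding genes. The deposited table holds raw counts per gene and library. The authors' own comparison is deposited as CPM values, log2 values (fold changes, mean expression) and p-values. Results were computed from the counts. Rows without a name (6518 of 35117), 0.657% to 2.55% of a library, were left out.

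Counts were tested in R 4.3.3 with edgeR 4.0.16 (filterByExpr, TMM, robust quasi-likelihood F-test, 2-sided, group as the only term, Benjamini-Hochberg adjustment). SE is the log2 fold change divided by the square root of F, and 95% intervals used 6 degrees of freedom. DESeq2 1.42.0, limma-voom (limma 3.58.1), other scalings and filters, and leaving out each library were the alternatives. In simulated counts for 8369 genes, the test recovered 58% and 52% of genes changed 2-fold up and 0.5-fold, and 100% and 94% of those changed 4-fold up and 0.25-fold. Of its calls, 5% were false. The simulation gave all genes the same dispersion (spread beyond counting) of 0.05, so recovery may differ for genes that spread more.

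The P450 genes and the lists were chosen with earlier results of these data known. Named genes were the P450 genes that passed, the 2 most abundant of each subfamily group, all cyp1, cyp3, steroid and bile acid genes, and up to 5 of each partner list that passed. Other genes named in the text were chosen after their values were seen. Groups were taken from the sample titles.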

Additional observations from a re-analysis of the deposited data

Results flagged for a closer look

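Single libraries stood far from the other 3 of their group for a few P450 genes. Of 77 groups of 4 libraries checked this way, 7 were flagged, where chance alone flags about 1 in 20. At low counts that rate need not hold, and 1 count among zeros, as for cyp2aa8 in lf:YAP, stands apart by construction. cyp27a7 was at 25.5 CPM in lf:YAP replicate 3 and at 10.2 to 11.5 CPM in the other lf:YAP libraries. cyp2aa8 was at 0.359 CPM in lf:YAP replicate 1, which is 1 count, and at 0 in the others. In WT replicate 2, cyp2aa2 was at 13.7 CPM and cyp2aa6 at 13.3 CPM, against 9.54 to 10.2 and 9.92 to 10.2 CPM in the other WT libraries. cyp3c4 was at 4.12 CPM in WT replicate 4 and at 0.381 to 0.763 CPM in the other WT libraries. At a few counts each, cyp27a1.2 was at 1.14 CPM in WT replicate 2, and cyp27a1.4 at 0.407 CPM in WT replicate 3.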

How the results depend on the processing

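Of the 12 calls, 7 (cyp2aa8, cyp2aa12, cyp2aa1, cyp2p7, cyp2p8, cyp3a65 and cyp27a7) held in all 18 alternatives, and 5 were lost in some, with the direction kept throughout. Among the 7, cyp2aa8 and cyp2p8 were tested only because they were high in WT. Most alternatives tested the same set of genes, so for cyp2aa8 and cyp2p8 holding throughout is no separate support. Leaving out 1 library at a time gave 8 to 14 lower and 0 to 1 higher P450 genes, and 691 to 1116 higher and 578 to 1193 lower genes over the whole table. It also moved the log2 fold change across 0 for cyp7a1 (-0.63 to 0.22), cyp24a1 (-0.064 to 0.091), cyp3c3 (-0.0073 to 0.21) and cyp46a1.2 (-0.088 to 0.28), none of which was called. Scaling by total counts gave 1541 higher and 521 lower genes (74.7% of calls higher), 2 higher P450 genes, and log2 fold changes of 0.037 for cyp3c1, 0.071 for cyp4v7, 0.061 for cyp4v8 and 0.13 for cyp7a1. The summed level, lf:YAP minus WT, was then -362.91 CPM over all P450 genes and 467.09 CPM for cyp20, cyp24 and cyp26 genes. That scaling moves the median of all genes to 0.31 and that of the P450 genes to -0.09, which is -0.41 relative to it. A test against a log2 fold change of 0.5 gave 444 higher and 355 lower genes and 8 lower P450 genes, fewer by construction. With every gene of at least 10 counts, or with at least 1 CPM in 4 libraries, 1 P450 gene was higher, cyp2p10. Without lf:YAP replicate 3 and WT replicate 4, chosen after seeing the data, 1 was higher and cyp24a1 had -0.12. Summing all rows of a symbol gave -0.0084 for cyp3c3.

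Replicates of the same number did not deviate together (correlations of -0.033, -0.0142, 0.0323 and -0.0544, with 0 of 4 highest for the own number). The labels do not say whether they share a clutch or preparation, and these few pools cannot tell. With the replicate block, 13 P450 genes were called, all lower, 10 of them among the 12, without cyp2p9 and cyp2aa2 and with cyp2ad2, cyp2u1 and cyp1a added (cyp1a at -1.04, edgeR adjusted p = 0.0195). The 17 untested P450 genes are limited by depth. The causes of these differences were not tested.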

Other observations

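A second row of the table, with fewer counts, carried the symbol of 4 P450 genes and was not used above. For cyp2y3 it averaged 5.14 ± 2.16 CPM in lf:YAP and 3.74 ± 1.25 CPM in WT (SD, n = 4 each), or in log2 terms a change of 0.39 (edgeR adjusted p = 0.507). For cyp3c3 it held 2 counts in lf:YAP and 12 in WT, with every lf:YAP library below every WT library, while the row used above had 0.07.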
